A study of Oryza sativa with 16 samples.

Results

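Calcineurin B-like proteins (CBLs) are small calcium sensors of plants, and CBL-interacting protein kinases (CIPKs) are the kinases they bind. The genes of both families on the rice genome array were taken here as 1 module: those whose name or synonym, without the prefix Os, is CBL or CIPK followed by a number. The array annotation and RefSeq together gave 31 such genes, 7 CBL and 24 CIPK, among 17905 genes that the array names. Another 8 genes of the families, CBL1, CBL7, CIPK3, CIPK9, CIPK13, CIPK15, CIPK27 and CIPK33, had no probe set assigned to them alone and were not analysed here. For each gene the probe set (the group of short oligonucleotides that reports 1 transcript) with the highest mean over the 16 arrays was used.

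When stress raises calcium in the cytosol, a CBL binds it and docks on the regulatory domain of a CIPK, which frees the kinase from its own inhibition and brings it to a membrane. The kinase then phosphorylates ion transporters there. In the best known branch, the SOS pathway, CBL4 (the rice SOS3) and CIPK24 (the rice SOS2) switch on a sodium exporter. In Arabidopsis CBL10 works with CIPK24 in shoots, CBL2 and CBL3 sit at the vacuole, and CIPK23 activates the potassium channel AKT1 together with CBL1 or CBL9. Rice and Arabidopsis genes of the same number are not always counterparts. The CIPKs are also called SnRK3 kinases, and are relatives of the SnRK2 kinases (SAPK genes in rice) of abscisic acid signalling.

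The arrays came from 4 rice varieties, each with 2 control arrays and 2 stressed arrays, labelled A and B, which makes 8 groups. VSR156 (salt-sensitive) and CSR11 (salt-tolerant) were grown in culture solution without salt or with 50 mM NaCl, and IR64 (drought-sensitive) and Vandana (drought-tolerant) were left in solution or taken out of it as the drought treatment. Per the labels the stress lasted 24 h, the seedlings were 2 weeks old and the tissue was leaf, whereas the study's own text gives another salt dose and a shorter drought, and names the tissue in different places as leaf, as pooled shoots and as whole plants. All plants were of these 4 unmodified varieties, 1 variety for each combination of stress and tolerance class, so that tolerance and variety cannot be told apart. Nothing in the labels ties the A and B arrays to separate plants, and the p-values below measure only the spread between arrays, which may be technical. That spread was estimated for each probe set over all 8 groups together. The p-values for salt therefore also draw on the drought arrays, and the reverse. A lower level in such bulk tissue can be less RNA per cell or fewer of the cells that hold it.

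The deposited intensities differed in level between arrays, with medians from 1.85 to 15.2. The dimmest array was CSR11 salt B, and both VSR156 salt arrays were dim as well, with mean intensities of 36.2 and 22.9 against 133 and 114 in their controls. The RNA quality ratio of the GAPDH control probe sets (log2 of the 3′ over the 5′ signal, each plus 16, where a higher value points to shorter RNA copies) was 6.06 and 5.89 on the VSR156 salt arrays, 4.64 and 4.39 on their controls, from 2.02 to 4.6 on the CSR11 arrays, 1.2 and 1.34 on the Vandana controls and from 0 to 0.6 on the other 6 arrays of the drought experiment. A and B arrays correlated at 0.969 or more in all groups except CSR11 salt (r = 0.929). The pairs of the drought experiment gave 0.988 to 0.992 and VSR156 salt 0.969, so the shared spread may be too small for the salt-stressed groups. Root marker genes differed between groups of the salt experiment, although the tissue is labelled leaf. Their summed normalized intensity, over the 6 root markers matched to a probe set, was 429 to 448 in VSR156 controls and 2890 to 3030 under salt (5 of 6 genes rose). In CSR11 the sums were 4260 to 4460 in controls and 1770 to 1950 under salt (3 of 6 fell). PHT1-8 went the other way in CSR11, from 8.28 and 8.51 to 9.11 and 9.15 on the log2 scale, and was not called. HKT2-1, NRT2.1, AMT1-3 and RCC3 were also chosen as root markers but were not matched. In the drought experiment the sums were lower, at 406 to 438 in IR64 controls and 118 to 150 under drought (2 of 6 genes fell), and at 215 to 250 in Vandana controls and 132 to 144 under drought (0 fell). The 8 leaf markers summed to between 10500 and 20000 in all groups. The part of dim arrays, RNA quality and root signal in the results was not tested.

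The labels of the drought arrays were checked against the controls, and the arrays labelled Vandana drought did not lie with the control of their label. Over the 206 probe sets that differed by at least 3 on the log2 scale between the IR64 and Vandana controls, the arrays labelled Vandana drought correlated with the IR64 control at 0.851 and with the Vandana control at -0.558. The arrays labelled IR64 drought gave 0.462 and 0.009, so both drought groups lay nearer to the IR64 control. Dehydration markers were higher in the IR64 controls than in the Vandana controls, with sums of 5190 to 5490 against 1470 to 1780. A wrong label and a difference in state between the controls cannot be told apart by this check. In the salt experiment the same check over 228 probe sets put each stressed group with the control of its own label (0.619 against -0.053 in VSR156, 0.863 against -0.389 in CSR11). The drought arrays are therefore named by their labels below, and the results of the members are given against either control, with those of the related gene lists against the other control at the end.

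Levels are given as log2 of the quantile-normalized intensity plus 16, so that an unlit probe set reads 4. A member is called higher or lower, and is said to rise or fall, where limma's Benjamini-Hochberg adjusted p over all 57194 probe sets was under 0.05 and the log2 fold change was at least 1 in size. Differences between responses (interactions) had no fold threshold. Of the 31 members, 27 had a mean normalized intensity of at least 16 and 25 of at least 50. CBL5, CIPK12, CIPK20 and CIPK30 stayed under 50 on every array, and CIPK30 stayed under 16. For these 4 genes a small change could not have been seen.

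**Figure D1:**
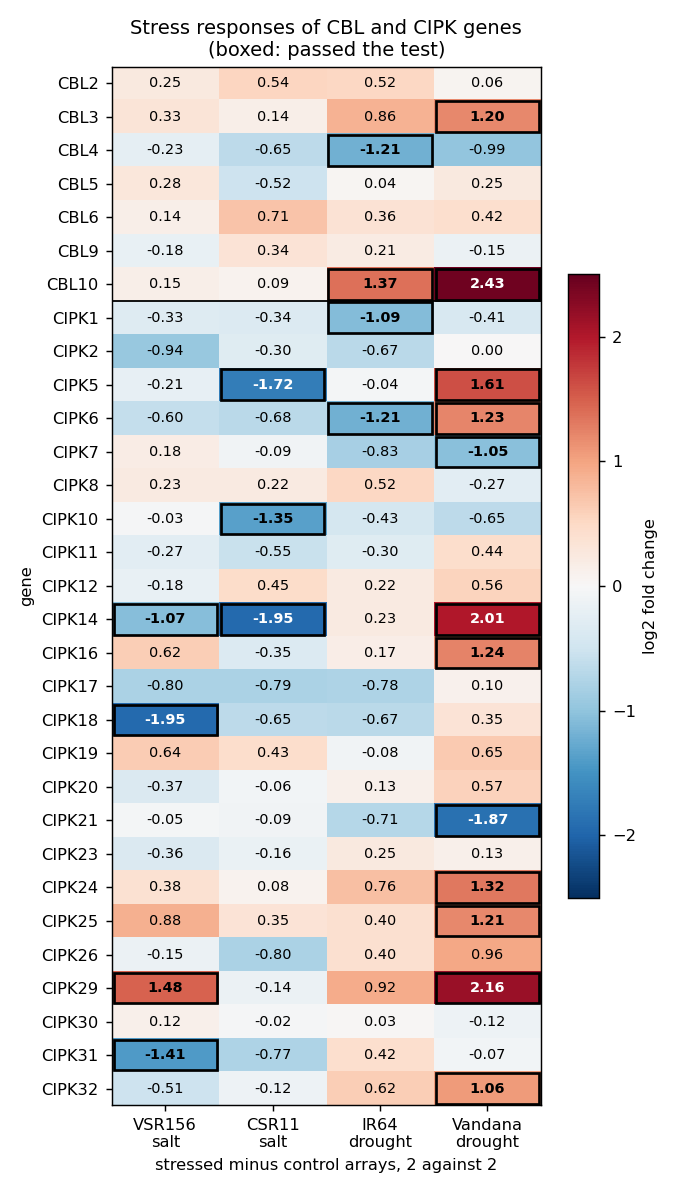
Log2 fold change of the 31 CBL and CIPK genes (rows) in the 4 stress comparisons (columns), each stressed minus control within the labelled variety, with called changes marked. The column of Vandana holds most of the marked changes, 12 of 31, and CIPK5, CIPK6 and CIPK14 are marked in opposite directions in different columns.

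Over the 4 stress comparisons, 17 members were called at least once and 14 in none. CIPK14 was called in 3 comparisons, 4 members were called in 2, 12 in 1, and no member was called in all 4. Under drought 14 members were called in 1 variety or both, under salt 6, and 3 under both stresses. CIPK5, CIPK6 and CIPK14 rose in one comparison and fell in another. The fold changes of 10 members had the same sign in all 4 comparisons, irrespective of calls. Taken singly, the comparisons of VSR156, CSR11, IR64 and Vandana called 12.9%, 9.68%, 12.9% and 38.7% of the members. The shares of the named genes were 13.3%, 10.4%, 13.6% and 24.1%. Calls shared between comparisons were not counted over all genes, so those counts describe the module only.

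The largest count was that of the arrays labelled Vandana drought against the Vandana control, where 10 members rose and 2 fell, with 11.8% of all probe sets called (5.25% higher and 6.52% lower). Called members made up 38.7% of the module, against 24.1% of the 17905 named genes with their brightest probe sets. The median fold change of the members was 0.42, against 0.01 over all probe sets and 0.02 over the named genes. The risen members were the sensors CBL3 and CBL10 and the kinases CIPK5, CIPK6, CIPK14, CIPK16, CIPK24, CIPK25, CIPK29 and CIPK32, and those that fell were CIPK7 and CIPK21.

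In IR64, CBL10 rose and CBL4, CIPK1 and CIPK6 fell, which made 12.9% of the members, with 6.96% of all probe sets (3.01% higher and 3.95% lower) and 13.6% of the named genes called. The median of the members was 0.17, against 0.00 over all probe sets. CBL10 was the 1 member called in both drought comparisons in the same direction.

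Among the sensors, CBL10 (LOC4325933) showed the largest change of the module. It read 7.60 and 7.52 in the IR64 controls and 8.94 and 8.92 under drought, and 6.55 and 6.59 in the Vandana controls and 8.92 and 9.08 under drought. In normalized intensity the Vandana values are 77.4 and 80.2 in controls and 468 and 526 under drought. Both drought groups thus ended at the same height, and the controls did not overlap, with IR64 the higher. The rise was 1.37 (SE 0.14, limma adjusted p = 3.69e-05) in IR64 and 2.43 (SE 0.14, limma adjusted p = 1.9e-07) in Vandana, and the responses differed by 1.06 (interaction -1.06, limma adjusted p = 0.00526). Under salt its values stayed within 6.43 to 6.98 on all 8 arrays, with fold changes of 0.15 in VSR156 and 0.09 in CSR11, and neither passed the test.

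The genes whose group means were most like those of CBL10 over the 8 groups were LOC4324443 (Pearson r = 0.994), LOC4332753 (r = 0.993) and OJ1735_C10.11 (r = 0.993), which is PP2C51 of the clade A phosphatases counted below, out of 17904 genes searched. PP2C51 went from 4.49 in the Vandana control to 8.76 under drought and from 6.29 to 8.44 in IR64, while LOC4324443 had lower steps, from 7.17 to 8.54 and from 7.63 to 8.34. Like CBL10, these genes differed little across the salt groups, where LOC4324443 ranged from 7.05 to 7.27. PP2C51 ranged from 4.26 to 4.87 there, near the unlit value of 4, so a fall could not have been seen. The points share arrays and normalization, and the correlations are given as a description.

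CBL3, a vacuolar sensor in Arabidopsis, rose by 1.2 (SE 0.13, limma adjusted p = 4.47e-05) in Vandana, and its 0.86 in IR64 stayed below the fold threshold. CBL4, the SOS3 sensor, fell in IR64 (-1.21, SE 0.20, limma adjusted p = 0.0014), from 6.94 and 6.88 to 5.68 and 5.71. In Vandana it went from 7.02 and 7.01 to 5.89 and 6.16, a change of -0.99 with a limma adjusted p of 0.0034 that missed the fold threshold alone. CBL4 was thus lower on all 4 drought arrays than on all 4 controls of that experiment. CBL2, CBL5, CBL6 and CBL9 were called in none of the 4 stress comparisons, with fold changes from -0.52 to 0.71. No CBL gene was called under salt, although 2 in VSR156 and 5 in CSR11 had an unadjusted limma p under 0.05. Their fold changes ran from -0.23 to 0.33 in VSR156 and from -0.65 to 0.71 in CSR11. All lay below the fold threshold, so the methods' t-test, held to the same threshold, could call none either. CBL4 read from 4.03 to 5.15 on the arrays of the salt experiment, near the unlit value of 4. A fall of CBL4 under salt could therefore hardly have been seen.

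**Figure D2:**
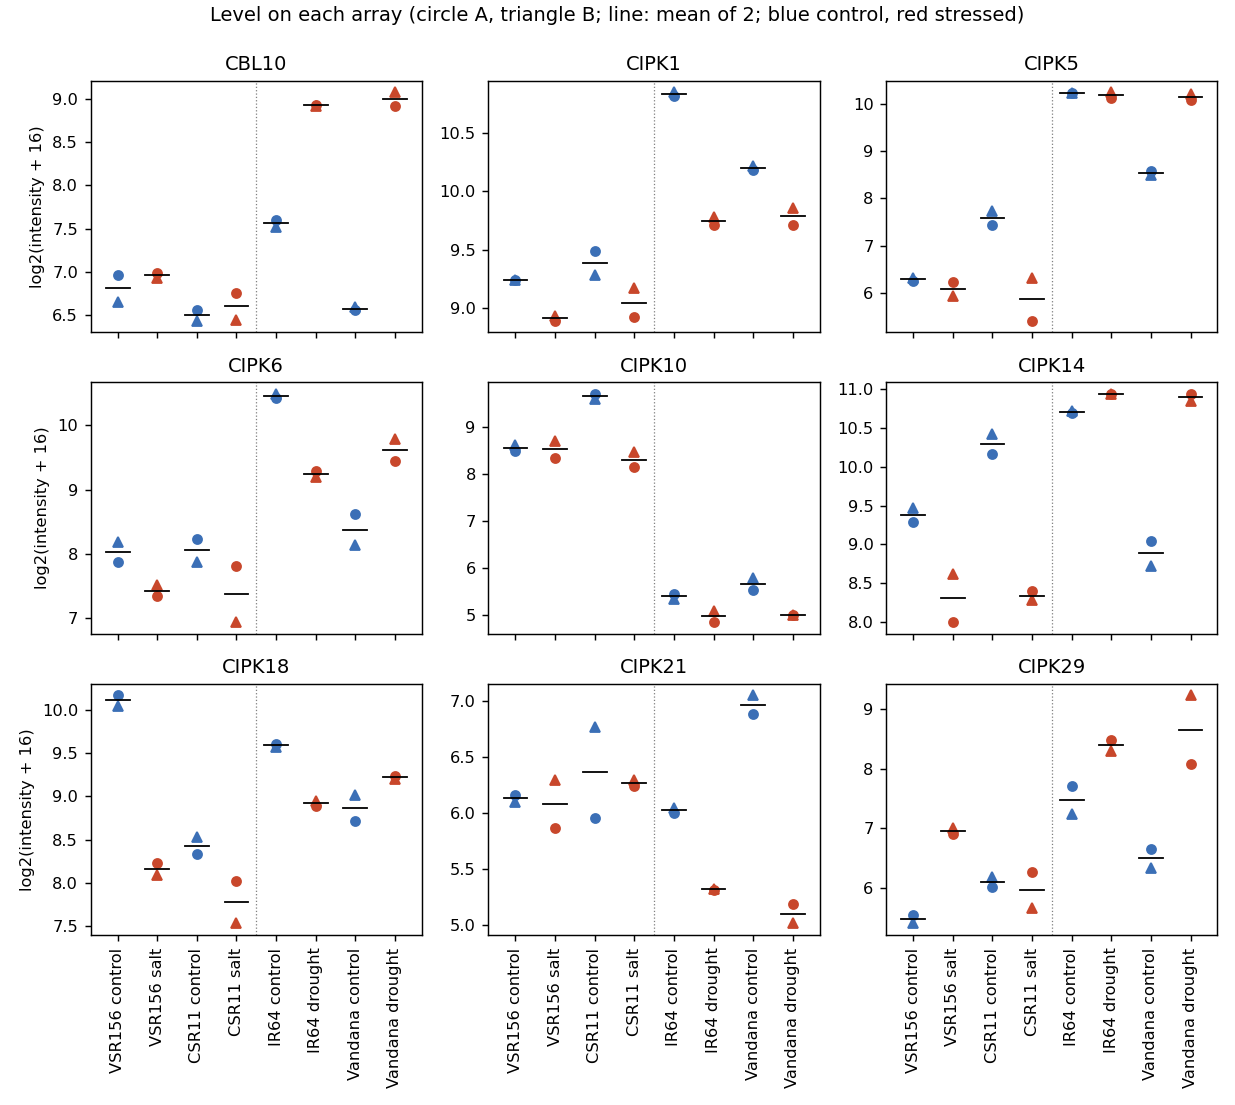
Level on each array (log2 of normalized intensity plus 16) of the 9 members described with all array values, for the 8 groups of 2 arrays (points), with group means. CBL10, CIPK5 and CIPK14 stand near the same height on all 4 drought arrays, while their Vandana controls lie lowest of the drought experiment.

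Among the kinases, CIPK14 (LOC4351307) changed in 3 comparisons. In the drought experiment it read 10.69 and 10.72 in IR64 controls, 10.94 and 10.94 under IR64 drought, 9.05 and 8.72 in Vandana controls and 10.94 and 10.85 under Vandana drought. The Vandana controls alone were low, and they are also the arrays of the drought experiment with the highest GAPDH ratios, whose part was not tested. Its rise in Vandana was 2.01 (SE 0.19, limma adjusted p = 1.13e-05), its change in IR64 was 0.23, and the interaction was -1.78 (limma adjusted p = 0.00156). In the salt experiment it read 9.29 and 9.47 in VSR156 controls, 8.0 and 8.62 under salt, 10.16 and 10.42 in CSR11 controls and 8.40 and 8.28 under salt. It was thus lower under salt in both varieties and was the 1 member called in both salt comparisons, at -1.07 (SE 0.19, limma adjusted p = 0.00233) in VSR156 and -1.95 (SE 0.19, limma adjusted p = 9e-05) in CSR11. The VSR156 call rested on single arrays, as the change was -0.98 without VSR156 control B and -0.76 without VSR156 salt A.

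CIPK5 (LOC4327093) followed the same order in the drought experiment. It read 10.22 and 10.22 in IR64 controls, 10.13 and 10.24 under IR64 drought, 8.57 and 8.5 in Vandana controls and 10.09 and 10.2 under Vandana drought. Again the Vandana controls alone were low, with a rise of 1.61 there (SE 0.23, limma adjusted p = 0.000339), -0.04 in IR64 and an interaction of -1.66 (limma adjusted p = 0.00982). Under salt it read 6.26 and 6.32 in VSR156 controls, 6.23 and 5.93 under salt, 7.44 and 7.73 in CSR11 controls and 5.41 and 6.32 under salt. The CSR11 controls stood above the other 6 salt arrays. CIPK5 fell by 1.72 in CSR11 (SE 0.23, limma adjusted p = 0.000661) and changed by -0.21 in VSR156. The interaction of 1.51 (limma adjusted p = 0.0166) was lost without VSR156 control A (1.48, limma adjusted p = 0.0654), VSR156 control B (1.54, limma adjusted p = 0.0533) or CSR11 control B (1.36, limma adjusted p = 0.0541).

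CIPK6 (LOC4345687) went in opposite directions in the 2 drought comparisons. Its levels were 10.43 and 10.49 in IR64 controls, 9.29 and 9.2 under IR64 drought, 8.62 and 8.14 in Vandana controls and 9.44 and 9.78 under Vandana drought. All 4 drought arrays lay between the controls of the 2 varieties. It fell by 1.21 in IR64 (SE 0.26, limma adjusted p = 0.00897) and rose by 1.23 in Vandana (SE 0.26, limma adjusted p = 0.00517), with an interaction of -2.45 (limma adjusted p = 0.00173), the largest of the module. The IR64 call was lost without IR64 control A (-1.24, limma adjusted p = 0.0525), control B (-1.19, 0.0624) or drought B (-1.17, 0.0671), and the Vandana call without control B (0.99, 0.0609) or drought B (1.06, 0.0556). Under salt it changed by -0.60 in VSR156 and -0.68 in CSR11, and neither was called.

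CIPK29 (LOC4344285) read 7.71 and 7.24 in IR64 controls, 8.49 and 8.31 under IR64 drought, 6.66 and 6.34 in Vandana controls and 8.08 and 9.24 under Vandana drought. In the salt experiment it read 5.54 and 5.40 in VSR156 controls, 6.9 and 7.0 under salt, 6.02 and 6.18 in CSR11 controls and 6.26 and 5.66 under salt. It was the 1 member that rose under salt. It rose by 2.16 in Vandana (SE 0.32, limma adjusted p = 0.000413) and by 1.48 in VSR156 (SE 0.32, limma adjusted p = 0.00801), a call lost without VSR156 control B (1.41, limma adjusted p = 0.0626). Its changes of 0.92 in IR64 and -0.14 in CSR11 were not called, and neither interaction was called for it. Its pair of Vandana drought arrays lay further apart than any of its other pairs.

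CIPK21 (LOC4344036) and CIPK7 fell in Vandana. CIPK21 read 6.0 and 6.04 in IR64 controls, 5.31 and 5.32 under IR64 drought, 6.88 and 7.05 in Vandana controls and 5.18 and 5.01 under Vandana drought. Its level was lower on all 4 drought arrays than on the controls, by 1.87 in Vandana (-1.87, SE 0.22, limma adjusted p = 7.09e-05) and by 0.71 in IR64 (-0.71, not called). The interaction of 1.16 had a limma adjusted p of 0.0482 and was lost in the fits without any 1 of the 8 drought experiment arrays, with values from 1.08 to 1.25, or without VSR156 control A or B (1.16, 0.0762). CIPK7 fell by 1.05 (-1.05, SE 0.16, limma adjusted p = 0.000458) and moved to -0.90 without Vandana control A. In IR64 it changed by -0.83, below the fold threshold.

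CIPK1 (LOC4325161), named for a kinase that in Arabidopsis acts in osmotic stress, read 10.82 and 10.85 in IR64 controls, 9.71 and 9.78 under IR64 drought, 10.18 and 10.22 in Vandana controls and 9.71 and 9.86 under Vandana drought. All 4 drought arrays were below all 4 controls. It fell by 1.09 in IR64 (-1.09, SE 0.12, limma adjusted p = 6.66e-05) and changed by -0.41 in Vandana. The interaction of -0.68 (limma adjusted p = 0.0296) did not pass in 9 of the fits that left out 1 array, among them each IR64 array and the VSR156 controls, with adjusted p up to 0.115.

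The other kinases that rose in Vandana did so by 1.06 to 1.32. CIPK24, the SOS2 kinase, went from 7.09 and 7.49 to 8.51 and 8.72 (1.32, SE 0.18, limma adjusted p = 0.00019) and from 7.63 and 7.67 to 8.40 and 8.43 in IR64 (0.76, not called). It was higher on all 4 drought arrays than on the 4 controls, in contrast to its SOS partner CBL4. CIPK25 rose by 1.21 (limma adjusted p = 0.00549), lost without Vandana control A (1.05, 0.0579). CIPK16 rose by 1.24 (limma adjusted p = 0.0117), lost without Vandana control A (1.22, 0.0659), control B (1.26, 0.0569) or drought B (1.14, 0.0827). CIPK32 rose by 1.06 (limma adjusted p = 0.0162), lost without any 1 of the 4 Vandana arrays (1.02 to 1.09). CIPK16 and CIPK32 were thus the least stable calls of the group.

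**Figure D3:**
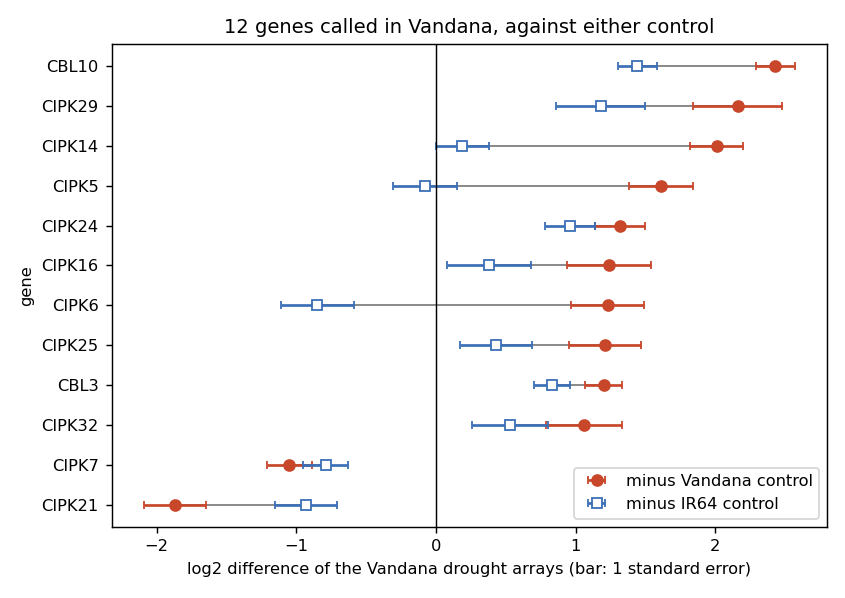
Log2 fold change of the 12 members called in Vandana, from the arrays labelled Vandana drought, against the Vandana control and against the IR64 control. Against the IR64 control CBL10 and CIPK29 remain past the threshold of 1, while CIPK5 and CIPK14 lie near 0 and CIPK6 is below 0.

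Set against the IR64 control, the arrays labelled Vandana drought gave 2 higher and 2 lower members, with 6.28% of all probe sets called (2.45% higher and 3.83% lower). That is 12.9% of the members, against 12.8% of the named genes. CBL10 (1.44, limma adjusted p = 2.81e-05) and CIPK29 (1.18, limma adjusted p = 0.0324) were higher, and CIPK1 (-1.05, limma adjusted p = 9.7e-05) and CIPK17 (-1.26, limma adjusted p = 0.00319) lower. Of the 10 members that rose against the Vandana control, 2 remained called, and of the 2 that fell, 0. CIPK5 changed to -0.08, CIPK14 to 0.19 and CIPK6 to -0.85, so that the rises of these 3 kinases were found against the Vandana control and not against the other. CBL3 (0.83), CIPK24 (0.96), CIPK21 (-0.93) and CIPK7 (-0.79) kept their direction below the fold threshold. CIPK16 (0.38), CIPK25 (0.43) and CIPK32 (0.53) also missed the adjusted p, which lay between 0.306 and 0.571 by limma. The arrays labelled IR64 drought, set against the Vandana control, gave 9 higher and 3 lower members with 10.4% of all probe sets called (4.7% higher and 5.68% lower) and 21.9% of the named genes, among them CBL10 (2.36), CIPK14 (2.05), CIPK29 (1.90), CIPK5 (1.65), CIPK21 (-1.65) and CBL4 (-1.32). CBL10 was higher in each of these 4 pairings.

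The 2 drought groups themselves did not differ in any member by the test. None of the 31 was called, with 0.572% of all probe sets and 0.821% of the named genes called, and none had an unadjusted limma p under 0.05. The largest difference was 0.48 (CIPK17), below the fold threshold, so the methods' t-test could call none either. The median size was 0.15, against a median standard error of 0.19. Between the 2 controls 15 members were at least 0.5 apart, with a median size of 0.48. Over all probe sets the drought groups correlated at 0.986 and the controls at 0.952. A drought interaction is the difference between the drought groups minus that between the controls. For CIPK14 the drought groups were 0.04 apart and the controls 1.82, for CIPK5 0.04 and 1.69, and for CIPK6 -0.37 and 2.08. In all, 7 members had a called drought interaction, 1 positive and 6 negative, with 7.41% of all probe sets called (3.76% positive and 3.65% negative). The share was 22.6% of the members and 13.7% of the named genes. CIPK18 was among them (-1.02, limma adjusted p = 0.0186) without a called response in either variety (-0.67 in IR64, 0.35 in Vandana), and it was not called in the fits that left out single arrays of the drought experiment, Vandana control B excepted (adjusted p up to 0.0823).

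Before stress, 4 members were higher in IR64 than in Vandana and 0 lower, with 4.75% of all probe sets called (2.61% higher and 2.14% lower) and 8.65% of the named genes, against 12.9% of the members. These were CIPK6 (2.08, SE 0.26, limma adjusted p = 0.000363), CIPK14 (1.82, SE 0.19, limma adjusted p = 8.02e-05), CIPK5 (1.69, SE 0.23, limma adjusted p = 0.000658) and CIPK17 (1.36, SE 0.23, limma adjusted p = 0.00257). CIPK6, CIPK14 and CIPK5 are 3 of the 8 kinases that rose in Vandana. CBL10, at 1.0 after rounding, lay just under the fold threshold. Dehydration markers, genes that many tissues switch on as they dry, were also higher in the IR64 controls, with sums of 5190 to 5490 over 6 genes against 1470 to 1780 in Vandana controls and 17800 to 18800 on the drought arrays. Their part in the control difference was not tested.

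Under salt few members were called, most of them lower. In VSR156 CIPK29 rose and CIPK14, CIPK18 and CIPK31 fell, 12.9% of the members, with 7.75% of all probe sets (3.33% higher and 4.42% lower) and 13.3% of the named genes called. In CSR11 no member rose and CIPK5, CIPK10 and CIPK14 fell, 9.68% of the members, with 6.33% of all probe sets (2.37% higher and 3.97% lower) and 10.4% of the named genes called. In CSR11, 4 members had a positive fold change with an unadjusted limma p under 0.05. The highest fold change there was 0.71, so neither limma nor the methods' t-test could call a member higher at the fold threshold. The members' medians were -0.15 and -0.14, against 0.02 over all probe sets in both comparisons. Both counts of members were near those of named genes in general.

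CIPK18 (LOC4338445, a locus that also carries the name CIPK22) had the largest fall in VSR156. It read 10.17 and 10.05 in VSR156 controls, 8.23 and 8.09 under salt, 8.33 and 8.53 in CSR11 controls and 8.02 and 7.53 under salt. The VSR156 controls were high, and the other 6 arrays ranged from 7.53 to 8.53. Its fall was 1.95 (-1.95, SE 0.16, limma adjusted p = 1.54e-05) in VSR156 against -0.65 in CSR11, with an interaction of -1.30 (limma adjusted p = 0.00548) and a control difference of 1.68 (SE 0.16, limma adjusted p = 4.46e-05). Its 8 drought experiment arrays ranged from 8.71 to 9.61.

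CIPK10 (LOC4332786) showed the reverse order of varieties. It read 8.49 and 8.62 in VSR156 controls, 8.33 and 8.71 under salt, 9.70 and 9.60 in CSR11 controls and 8.14 and 8.46 under salt. Here the CSR11 controls were high. It fell by 1.35 in CSR11 (-1.35, SE 0.16, limma adjusted p = 0.000321) and changed by -0.03 in VSR156 (interaction 1.32, limma adjusted p = 0.005). All 4 probe sets of this gene fell in CSR11, from -1.27 to -2.29. But 2 of the 4 also fell in VSR156 (-1.15 and -1.39), so that its probe sets disagree on whether VSR156 changed. The salt interaction was positive for all 4, from 0.90 to 1.32, and the dimmest probe set (0.90) alone was not called. In the drought experiment the brightest probe set was dim, between 4.86 and 5.79, and was not called. The second one fell in Vandana (-1.32, limma adjusted p = 0.000172), which leaves the drought response of CIPK10 unsettled as well. The CSR11 controls, in which CIPK5, CIPK10 and CIPK14 were highest of the salt arrays, also had the highest root marker sums, whose part was not tested.

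CIPK31 fell by 1.41 in VSR156 (-1.41, SE 0.34, limma adjusted p = 0.014), from 8.68 and 9.02 to 6.90 and 7.99, and was lost without VSR156 control B (-1.24, 0.113) or VSR156 salt A (-0.86, 0.0954). Its second probe set changed by -0.49. CBL6 differed between the varieties in response (-0.57, limma adjusted p = 0.041), with 0.14 in VSR156 and 0.71 in CSR11, neither called, and this was lost in all fits that left out 1 array except those without VSR156 control B or CSR11 salt A. In all, 4 members had a called salt interaction, 2 in each direction, with 9.04% of all probe sets called (4.39% positive and 4.65% negative). The share was 12.9% of the members and 18.4% of the named genes.

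Between the salt controls 2 members were higher in VSR156, CIPK18 (above) and CBL9 (1.1, SE 0.13, limma adjusted p = 0.000181), and 2 were higher in CSR11, CIPK5 (-1.29, SE 0.23, limma adjusted p = 0.00405) and CIPK10 (-1.09, SE 0.16, limma adjusted p = 0.00105), with 4.94% of all probe sets called (2.11% higher and 2.83% lower) and 8.97% of the named genes, against 12.9% of the members. CBL9 stayed under a normalized intensity of 83 on all arrays (highest 82.4). Between the salt-stressed groups 0 members were called, with 4.72% of all probe sets and 7.9% of the named genes called. Of the members, 8 had an unadjusted limma p under 0.05 and 3 an adjusted one, but all differences lay below the fold threshold of 1. The methods' t-test was held to the same threshold, so it could call no member either. CIPK26 and CIPK29 were furthest apart, each 0.99 higher in VSR156, and 1 member was called without VSR156 salt A and 3 without CSR11 salt A.

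Second probe sets disagreed for CIPK23, the kinase of the potassium channel AKT1 in rice and Arabidopsis. Its brighter probe set changed by at most 0.36 in size in the 4 stress comparisons, with none called. The other, fell by 2.47 in CSR11 (-2.47, SE 0.29, limma adjusted p = 0.000265) and rose by 1.22 in Vandana (limma adjusted p = 0.00905). No direction is therefore given for CIPK23. CIPK7 had a second probe set that fell in CSR11 (-1.28, limma adjusted p = 0.00217), where its brighter one read -0.09. The probe sets of CBL9, CIPK2, CIPK11 and CIPK16 carry suffixes that mark oligonucleotides shared with other transcripts, and their values are uncertain.

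The array holds 2 members that are neighbours of another member on the genome, CIPK30 of CIPK12 and CIPK29 of CIPK2. CIPK29 rose in Vandana and VSR156, while CIPK2 changed by 0.00 and -0.94 there by its brightest probe set, whose values are uncertain. The next brightest probe set of CIPK2 read 0.54 and -0.43, and neither was called. CIPK12 and CIPK30 were too dim to be compared.

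**Figure D4:**
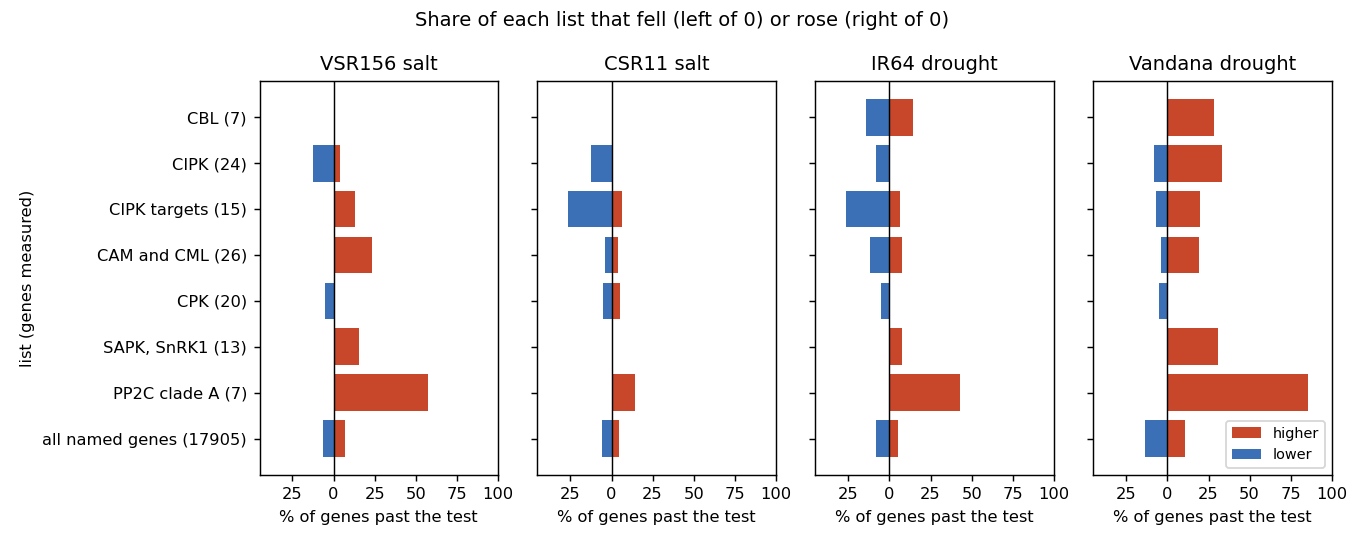
Share of genes called higher and lower in each of the 4 stress comparisons, for the CBL and CIPK genes, their related lists and all named genes. The clade A phosphatases have the largest share of higher genes in Vandana, 6 of 7, and the calcium-dependent kinases have at most 1 higher and 1 lower gene of 20 in any comparison.

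The rest of the pathway was followed in 5 lists, beside the 13.3%, 10.4%, 13.6% and 24.1% of named genes called in VSR156, CSR11, IR64 and Vandana. Of 15 transporters, channels and oxidases that CIPKs act on, or that move the same ions, 2 rose in VSR156, 1 rose and 4 fell in CSR11, 1 rose and 4 fell in IR64, and 3 rose and 1 fell in Vandana, or 13.3%, 33.3%, 33.3% and 26.7%. AKT1, the potassium channel that takes up potassium in roots, fell in CSR11 (-2.31) and IR64 (-1.52) and read -0.32 in VSR156 and 0.34 in Vandana. Against the other control AKT1 read -0.04 (not called) on the IR64 drought arrays and -1.14 (lower) on the Vandana drought arrays. The root marker sums were lower under stress in CSR11, IR64 and Vandana, and their part was not tested. HAK1, a potassium transporter, fell in CSR11 (-1.63) and IR64 (-1.48) and rose in Vandana (1.52). Against the other control HAK1 turned, to -0.98 (not called) on the Vandana drought arrays and to 1.01 (higher) on the IR64 drought arrays, as CIPK6 turned. TPKB, a potassium channel of small vacuoles, rose by 2.77 in Vandana, and the ammonium transporters AMT1-1 and AMT1-2 rose by 2.27 and 2.44 in VSR156. AMT1-2 is also one of the root markers.

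Other calcium sensors and decoders were counted next. Of 26 calmodulin and calmodulin-like genes 6 rose in VSR156, among them CML31 (3.57) and CML16 (3.15), against 1 up and 1 down in CSR11, 2 up and 3 down in IR64 and 5 up and 1 down in Vandana, where CML15 rose by 3.2. These are 23.1%, 7.69%, 19.2% and 23.1% of the list in that order, below the share of named genes in CSR11 and Vandana and above it in VSR156 and IR64. Calcium-dependent kinases, which join sensor and kinase in 1 protein, gave 0 up and 1 down in VSR156, 1 and 1 in CSR11, 0 and 1 in IR64 and 0 and 1 in Vandana, out of 20 (5% to 10%). CPK1 fell in both drought comparisons (-1.06 and -1.60). These kinases thus had fewer called genes in Vandana than the CBL and CIPK genes, 1 of 20 against 12 of 31, a difference that was not tested, and 1 of 20 against 4 of 31 when the Vandana drought arrays were set against the IR64 control.

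The list of 13 other SnRK kinases held the SAPK genes of abscisic acid signalling and the SnRK1 kinases OSK1, OSK3 and OSK24. Of these 13, 2 rose in VSR156, 0 in CSR11, 1 in IR64 and 4 in Vandana, and 0 fell. SAPK1 rose in VSR156 (1.40), IR64 (1.17) and Vandana (2.35). The clade A type 2C phosphatases, which hold SnRK2 kinases inactive, rose in 4, 1, 3 and 6 of 7 genes in VSR156, CSR11, IR64 and Vandana, and 0 fell. PP2C30 rose in all 4 (3.30, 1.30, 1.01 and 3.85), which no CBL or CIPK gene did. The dehydration markers rose in 6, 2, 5 and 6 of 6 genes in the same order of varieties, and the dividing cell markers in 0, 1, 0 and 0 of 5, with 2, 0, 0 and 2 that fell. Of the 8 leaf markers 3, 4, 4 and 4 fell.

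The counts of these lists on the Vandana drought arrays also changed with the control. Against the IR64 control 1 of the 15 targets was higher and 3 were lower, 2 and 2 of the 26 calmodulin genes, 0 and 1 of the 20 calcium-dependent kinases, 1 and 0 of the 13 other SnRK kinases and 3 and 0 of the 7 phosphatases. In that order 26.7%, 15.4%, 5%, 7.69% and 42.9% of the lists were called, against 12.8% of the named genes. TPKB (0.61) was no longer called, whereas CML15 (1.66), SAPK1 (1.2), PP2C30 (1.26) and PP2C51 (2.47) were higher against this control too, as CBL10 was. The IR64 drought arrays against the Vandana control gave 3 and 1 of the targets, 5 and 1 of the calmodulin genes, 0 and 1 of the calcium-dependent kinases, 4 and 0 of the other SnRK kinases and 6 and 0 of the phosphatases. These were 26.7%, 23.1%, 5%, 30.8% and 85.7% of the lists, against 21.9% of the named genes.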

How the data were processed

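Rice seedlings of 4 varieties were profiled on 16 Affymetrix arrays, 2 for each of 8 groups. The authors deposited 1 table of linear intensities, for which the submitters' notes name GCOS 1.0 and the methods RMA with removal of absent probe sets. The deposited intensities were linear, stood at unequal levels on the arrays and carried no present or absent call, so they were normalized here. The methods place the probe targets on TIGR rice pseudomolecules, whose coordinates were not used here.

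Of 57381 probe sets, 187 controls were removed, and the other 57194 were quantile-normalized and 16 was added before log2. The pseudocount shrinks fold changes of dim probe sets. limma 3.58.1 (R 4.3.3) fitted 8 group means and moderated the variances by empirical Bayes (8 residual and 2.94 prior degrees of freedom), tested first on simulated data. Exactly 1 gene was named for 22436 probe sets, and all of these matched RefSeq by gene ID, whose synonyms supplied the CBL and CIPK names. Where a gene carried 2 such names (CBL5, CIPK18, CIPK31), the only one with the prefix Os was used, or else the one that no other gene had.

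Members with a value for every array were those called in at least 2 stress comparisons, or in 1 and in an interaction. Likeness was Pearson's r over 8 group means. The lists were CIPK targets, calmodulins, calcium-dependent kinases, other SnRK kinases, clade A phosphatases, and leaf, root, dividing cell and dehydration markers. Members and lists were chosen with earlier results of these data known. The comparisons between stressed groups, and those of the lists against the other control, were added after seeing the data. Alternatives were the pseudocount, centring, no normalization, a filter on dim probe sets, fewer arrays, a replicate block, the mean of probe sets, the methods' t-test (Welch) and, for drought, the control of the other variety. Protein and promoter sequences were not analysed here.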

Additional observations from a re-analysis of the deposited data

Results flagged for a closer look

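The responses of the 2 varieties of an experiment differed for 9 members by limma's interaction test, adjusted over all probe sets. The share was 12.9% of the members under salt and 22.6% under drought, against 18.4% and 13.7% of the named genes. No salt interaction was called with a pseudocount of 1, median centring or the salt arrays alone. Fewer drought ones were called with that pseudocount or centring. The calls of CBL6, CIPK1 and CIPK21 and the drought call of CIPK18 were lost in many fits without 1 array, and the salt call of CIPK5 in some. Each value is the response of the sensitive variety minus that of the tolerant one on the log2 scale. Under salt, CIPK5 differed by 1.51 (limma adjusted p = 0.0166) and CIPK10 by 1.32 (limma adjusted p = 0.005), since both fell in CSR11 and not in VSR156 by their brightest probe sets. CIPK18 differed by -1.30 (limma adjusted p = 0.00548), since its fall was called in VSR156. CBL6 differed by -0.57 (limma adjusted p = 0.041), without a called response in either variety.

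Under drought, CBL10 differed by -1.06 (limma adjusted p = 0.00526), CIPK1 by -0.68 (limma adjusted p = 0.0296), CIPK5 by -1.66 (limma adjusted p = 0.00982) and CIPK6 by -2.45 (limma adjusted p = 0.00173). CIPK14 differed by -1.78 (limma adjusted p = 0.00156), CIPK18 by -1.02 (limma adjusted p = 0.0186) and CIPK21 by 1.16 (limma adjusted p = 0.0482). CIPK5 and CIPK18 thus differed in both experiments, CIPK5 with opposite signs. The drought values rest on 2 drought groups that both lay nearer to the IR64 control in the check of labels. Variety and array group cannot be told apart there.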

How the results depend on the processing

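Counts of called members in the 4 stress comparisons (VSR156, CSR11, IR64, Vandana) were 4, 3, 4 and 12, in the control differences 4 (salt) and 4 (drought), and in the interactions 4 and 7. A pseudocount of 64 gave 2 in VSR156 and 2 between salt controls, and a pseudocount of 1 gave 2 in IR64 and interactions of 0 and 2. Centring each array on its median gave 2 in IR64, 2 between salt controls, and interactions of 0 and 1. The values as deposited gave 17 lower in VSR156, 2 in Vandana and 0 in the other comparisons. As deposited, the VSR156 salt arrays had mean intensities of 36.2 and 22.9, against 133 and 114 in their controls, and the part of this in the 17 was not tested. Shares over all probe sets at the alternative settings are not given here, so these counts describe the members only. With the 8 arrays of an experiment alone, the interactions numbered 0 (salt) and 14 (drought). The methods' t-test at its unadjusted threshold gave 2 in VSR156, 1 in CSR11, 7 in Vandana and 1 between drought controls, and 0 in all comparisons after adjustment. Against the control of the other variety, IR64 drought gave 12 and Vandana drought 4.

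Leaving out 1 array gave 1 to 6 in VSR156 (1 without control B, 2 without salt A), 3 to 8 in CSR11 (8 without salt A), 3 to 4 in IR64, 8 to 12 in Vandana, 2 to 13 salt interactions (13 without CSR11 salt A, 2 without VSR156 control A or CSR11 control B), 4 to 10 drought interactions (4 without each drought experiment array except Vandana control B and Vandana drought A), and 0 to 3 between salt-stressed groups. Between drought groups the count stayed 0. Signs turned with the values as deposited for CIPK1 (drought interaction 0.10), CIPK10 (control difference 0.05, interaction -0.06) and CIPK29 (VSR156, -0.63), and against the other control for CIPK5 (Vandana, -0.08) and CIPK6 (IR64 0.86, Vandana -0.85). Same-letter arrays did not deviate together (r from -0.027 to 0.012), so the letters were not taken as pairs, and a replicate block left 12 members in Vandana and the other counts within 1 of the above, with CBL6 lost from the interactions (limma adjusted p = 0.0577). The mean of all probe sets and a filter at a mean intensity of 50 kept all counts within 1.5 times. Dim signals limit CBL5, CIPK12, CIPK20 and CIPK30, and CBL4 in the salt experiment.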
